A study of Mus musculus with 10 samples.

Results

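Interferon regulatory factors (IRFs) are DNA-binding proteins that turn signals from interferon receptors, pattern-recognition receptors, and antigen receptors into transcription. *Irf1* is induced by interferon and activates its targets, whereas *Irf2* competes for the same sites. *Irf3* and *Irf7* are the factors that drive type I interferon genes after viral sensing, *Irf5* acts downstream of Toll-like receptors, and *Irf9* acts in the response to type I interferon. *Irf4* and *Irf8* are the immune-restricted members, which bind poorly on their own and pair with ETS or AP-1/BATF factors. In group 2 innate lymphoid cells (ILC2s), the tissue-resident producers of IL-5 and IL-13, *Irf4* is known to promote cytokine expression.

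The regions described here are the ATAC-seq regions (open chromatin, read out by the insertion of adapters by the Tn5 transposase) at 8 IRF genes, *Irf1*, *Irf2*, *Irf3*, *Irf4*, *Irf5*, *Irf7*, *Irf8*, and *Irf9*. A region was taken when its centre lay inside one of these genes or had its nearest RefSeq transcription start site (TSS) there. This gave 61 of the 50039 regions in the mm10 count table, of which 24 belonged to *Irf4*, 11 to *Irf2*, 11 to *Irf8*, 8 to *Irf1*, 4 to *Irf5*, and 1 each to *Irf3*, *Irf7*, and *Irf9*. All 61 had counts and were tested. Assignment to the nearest TSS is a rule of distance, and the gene that a region controls may be another. Of the 61, 8 lay within a promoter window (from 1000 bp before a TSS to 100 bp after it), 31 inside a gene, and 22 between genes. Distances are written as + or - kb from the nearest TSS of the named gene to the centre of the region.

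ILC2s of wild-type C57BL/6 male mice aged 6 weeks were compared over 5 tissues, pancreas, lung, bone marrow (BM), small intestine (SI), and large intestine (LI), each with 2 libraries of 50000 sorted cells. No treatment, transgene, or deletion was given for any group. Each library pooled the cells of 16 mice for BM, lung, and pancreas or of 10 mice for LI and SI, so its values are averages over animals. BM cells were sorted as Lin-ST2+CD25+, cells from LI, lung, and pancreas as Lin-CD45+CD127+ST2+CD25+, and SI cells as Lin-CD45+CD127+KLRG1+ with a low Thy1 level. The gate changed with the tissue. By the study's methods, BM cells were flushed from bone, whereas the other tissues were digested with collagenase. BM cells were also sorted on another instrument than the cells of the other tissues. An effect of the gate, the isolation, or the sorter cannot be told apart from one of the tissue. The lineage (Lin) markers gated out were CD3, B220, CD11b, CD11c, and FcεRI. The study calls the replicates biological duplicates, no label says that they came from separate sorts, and p-values measure the spread between these libraries.

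Libraries held between 10282987 and 32797872 counts, and a member region had between 10 and 2408 counts in a library. Levels are given as CPM (counts per 1000000 of a library, with TMM scaling). Promoter regions of 10 of 10 ILC2 marker genes were in the table. Over the 10 libraries, their summed level ran from 255 CPM in SI replicate 1 (341 in SI replicate 2) to 416 CPM in pancreas replicate 1. The promoter of *Il1rl1*, which encodes ST2, had 4.53 and 3.55 CPM in SI and at least 10.4 CPM in every other library. That of *Klrg1* had 11.2 and 11.5 CPM in BM and at least 35.2 elsewhere, and that of *Il2ra* was lowest in BM by little (22.4 and 23.1, against at least 23.8). The promoters of *Gata3* (91.0 and 83.4 CPM in BM, at most 81.4 elsewhere) and *Rora* (82.0 and 87.8, at most 70.0 elsewhere) were highest in BM. None of 5 marker genes of group 1 ILCs and NK cells and none of 4 of ILC3s had a promoter region in the table. Of 7 B and plasma cell markers, only *Cd79b*, *Ebf1*, and *Mzb1* had one, and the sum was 38.3 CPM in SI replicate 1, 13.2 in SI replicate 2, 15.3 and 9.04 in LI, and between 5.10 and 8.41 in the other 6 libraries. Of 6 myeloid and dendritic cell markers only *Spi1* had a promoter region, with 9.29 CPM in SI replicate 1, 2.20 in SI replicate 2, and at most 3.92 elsewhere. T cell markers with a promoter region (2 of 5) summed to between 4.71 and 10.0 CPM. SI replicate 1 exceeded SI replicate 2 by more than 1.5 times in 17 of the 61 IRF regions, against 15.2% of all regions, and the reverse held in 9, against 13.2%. Values that rest on SI replicate 1 are therefore given with both libraries, and the part of other cell types in them was not tested.

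Of the 61 IRF regions, 38 differed between the 5 tissues in edgeR's quasi-likelihood F test at a Benjamini-Hochberg adjusted p under 0.05, a share of 62.3%, against 44.2% of all 49981 regions tested. *Irf4* held 19 of the 38, out of its 24 regions. For *Irf8* it was 6 of 11, for *Irf1* 5 of 8, for *Irf2* 4 of 11, and for *Irf5* 2 of 4. The single regions of *Irf7* and *Irf9* passed, and the single *Irf3* region did not. By class, 5 of 8 promoters, 19 of 31 intragenic, and 14 of 22 intergenic IRF regions differed, against 30.9%, 47%, and 48% of all regions of these classes. The median range between the highest and the lowest tissue mean was 1.37 on the log2 CPM scale for the 61 regions and 0.92 for all regions. It was largest for *Irf4*, at 2.08, and lay between 0.72 and 1.20 for the other genes.

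**Figure D1:**
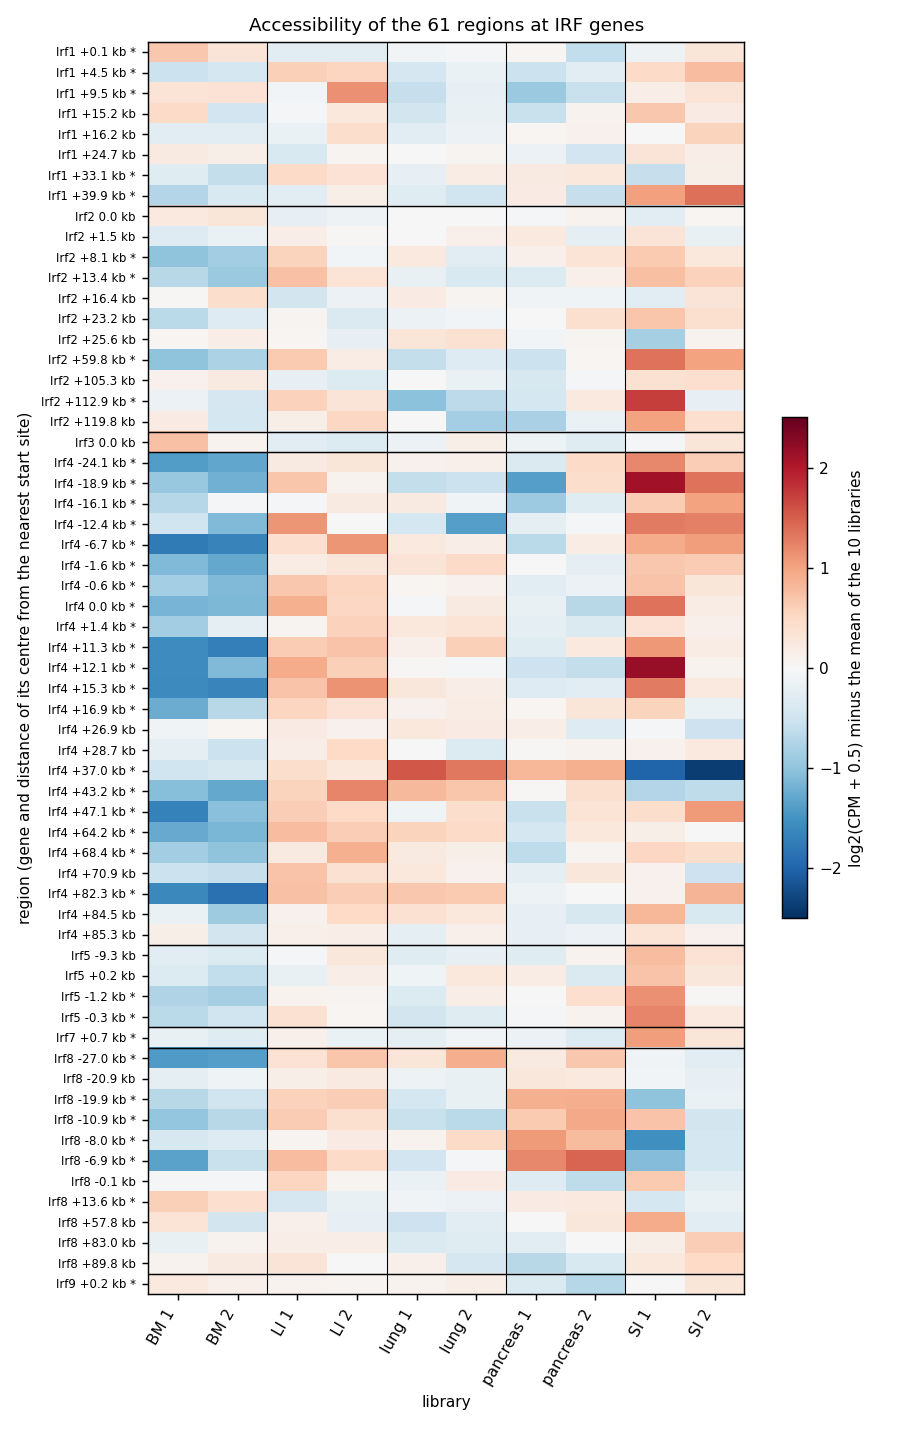
Each row is 1 of the 61 IRF regions, labelled by gene and distance from the nearest TSS, and each column is a library, with 2 per tissue. Colour is log2(CPM + 0.5) minus the row's mean over the 10 libraries, on a scale that ends at -2.5 and 2.5, and a star marks the 38 regions that differed between tissues. Most *Irf4* rows are blue (below the mean) in both BM libraries, and the row at +37.0 kb is deepest blue in SI and red in lung.

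A region was called higher or lower in a tissue when it differed from each of the other 4 tissues with an unadjusted p under 0.05 in edgeR's test. This follows the study's pairwise comparisons, for which DESeq2 was used and no adjustment of p is named. Most such calls were of a lower level in BM, and most of those lay at *Irf4*. Of the 61 regions, 14 (23.0%) were lower in BM than in each other tissue, against 6.63% of all regions, and 0 were higher, against 4.50%. Of the 14, 11 were *Irf4* regions, which is 45.8% of the *Irf4* regions. *Irf2* had 1 of 11 regions, *Irf8* 1 of 11, and *Irf5* 1 of 4, and *Irf1*, *Irf3*, *Irf7*, and *Irf9* had 0. The share over the 61 regions therefore rests mainly on *Irf4*. In SI, 4 were higher (background 2.80%) and 1 lower (3.59%). In pancreas, 2 were higher (1.43%) and 1 lower (0.572%), and in lung 1 was higher (1.30%) and 0 lower (1.72%). LI alone had 0 higher (1.30%) and 0 lower (0.132%). Against BM, lung, and pancreas, 3 regions were higher in both intestines (2.18%) and 0 lower (0.874%). Apart from the lower levels in BM at *Irf4*, these numbers are small, and several calls depend on a single library, as given beside each. DESeq2 gave 14 regions lower in BM, 4 higher in SI, and 1 higher in both intestines.

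*Irf4* (chr13:30749233-30766981, plus strand) was the gene with the most regions and the widest differences. Its 2 promoter regions were lowest in BM. At the TSS (chr13:30748932-30749534, exon 1, untranslated), BM had 4.31 and 4.42 CPM, LI 19.3 and 14.8, lung 10.0 and 12.0, pancreas 8.95 and 6.15, and SI 27.0 and 11.7. Both BM libraries lay below the other 8, and the SI libraries lay far apart. This region was called lower in BM, with the smallest difference to pancreas (log2 fold change -0.81 ± 0.35 SE, unadjusted p = 0.035 in edgeR's test, adjusted p = 0.10), and the call was lost without BM replicate 1, BM replicate 2, or pancreas replicate 1. The second promoter region, at -0.6 kb, had 4.11 and 3.36 CPM in BM, 8.15 and 8.42 in lung, 12.7 and 11.5 in LI, 6.42 and 7.01 in pancreas, and 13.0 and 9.75 in SI. Here LI was 3.24-fold above BM (adjusted p = 0.00026). It too was called lower in BM, and the call was lost without BM replicate 2. In these bulk libraries, fewer cells with the region open and a lower accessibility per cell cannot be told apart.

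The lower level in BM extended over most of the locus. BM had the lowest mean in 19 of the 24 *Irf4* regions, against 26.5% of all regions, and both BM libraries lay below all 8 others in 15 of the 24, against 12.5% of all regions. The 5 regions with the largest minimum difference lay upstream, in intron 7, in the 3′ part of the gene, and downstream inside the neighbouring gene *Exoc2*, which encodes a subunit of the exocyst. At -24.1 kb (chr13:30724837-30725337), BM had 0.489 and 0.552 CPM, which rest on 10 and 12 counts, LI 2.53 and 2.69, lung 2.31 and 2.32, pancreas 1.53 and 3.13, and SI 5.44 and 3.48. SI was 8.45-fold above BM (log2 fold change 3.08 ± 0.49 SE, adjusted p = 0.0003). At -6.7 kb (chr13:30742246-30742842), BM had 1.08 and 1.20 CPM, LI 6.71 and 11.1, lung 5.88 and 5.58, pancreas 2.89 and 5.61, and SI 9.77 and 10.6. Here too the BM libraries were apart from all others, with SI 8.92-fold above BM (adjusted p = 2.8e-05).

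Within the gene, the region at +11.3 kb in intron 7 had 1.27 and 1.10 CPM in BM and between 3.77 and 10.7 in the other libraries. The region at +15.3 kb, in the untranslated part of exon 9, had 0.881 and 0.828 CPM in BM and between 2.83 and 9.68 elsewhere. Far downstream, at +82.3 kb (chr13:30831253-30831775), BM had 0.979 and 0.736 CPM, LI 6.97 and 6.39, lung 6.74 and 6.62, pancreas 3.65 and 3.99, and SI 4.38 and 7.66. In each of these, both BM libraries lay below all others, while the libraries of LI and SI overlapped. The smallest difference of BM at +82.3 kb was again to pancreas (log2 fold change -2.15 ± 0.38 SE, adjusted p = 0.00088). The calls at -24.1, -6.7, +11.3, +15.3, and +82.3 kb passed the adjusted threshold and were kept under each refit run (the other scalings, the count filter, DESeq2, the replicate block, the GC and width correction, and each library left out in turn). Not all of the locus showed this. The 5 regions at +26.9, +28.7, +70.9, +84.5, and +85.3 kb did not pass the test between tissues (adjusted p between 0.11 and 0.76). At +12.1 kb, in coding exon 8, SI replicate 1 had 22.8 CPM and SI replicate 2 4.95, beside 9.24 and 7.21 in LI and 1.22 and 1.89 in BM. The B and plasma cell marker sum of these SI libraries differed in the same direction (38.3 and 13.2 CPM), and its part in the result was not tested.

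**Figure D2:**
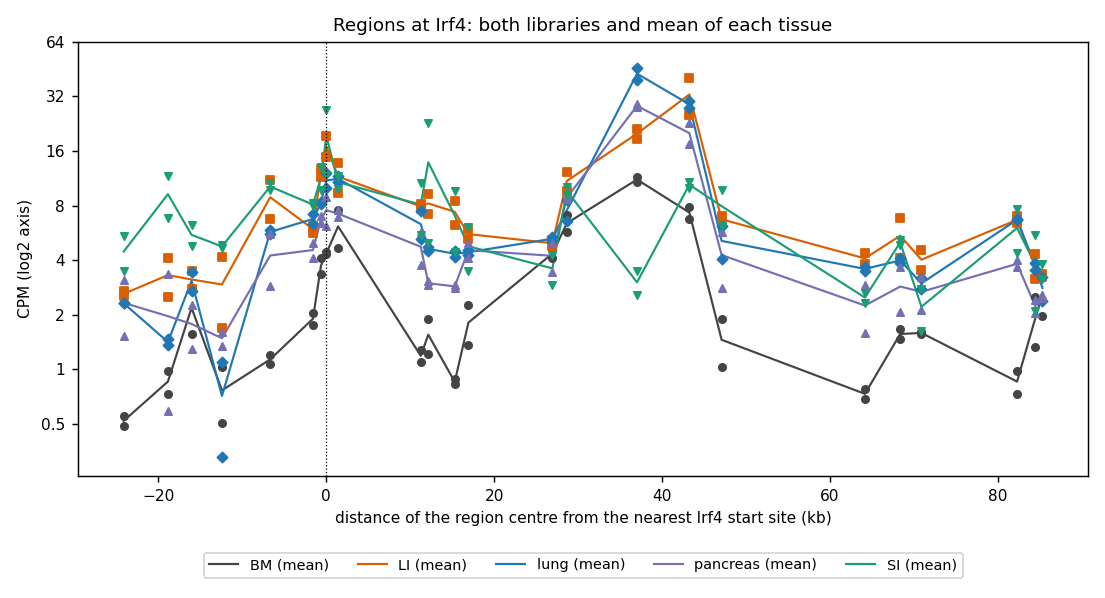
CPM (log2 axis) of the 24 *Irf4* regions against the distance of their centres from the nearest *Irf4* TSS (kb, dotted line at 0). Points are the 2 libraries of a tissue, lines join the tissue means, and the line of BM runs lowest in 19 of 24 regions, whereas SI falls below BM at +37.0 kb.

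At a distal region the tissues took another order. At +37.0 kb (chr13:30785859-30786626), between *Irf4* and *Exoc2*, lung had 46.0 and 39.3 CPM, pancreas 27.8 and 28.9, LI 21.2 and 18.7, BM 10.8 and 11.5, and SI 3.47 and 2.58. The libraries of the 5 tissues formed 5 separate pairs, with the SI libraries below all others. At the TSS, in contrast, SI had the highest mean, with a log2 difference to LI of 0.19 ± 0.32 SE (adjusted p = 0.76). Lung was 14.2-fold above SI (log2 fold change 3.83 ± 0.24 SE, adjusted p = 1.4e-07), and the test over the 5 tissues gave an adjusted p of 3.3e-07, the smallest of the 61 regions. In the order of the levels, lung and pancreas (log2 difference 0.59 ± 0.21 SE, adjusted p = 0.11) and pancreas and LI (0.51 ± 0.21 SE, adjusted p = 0.25) did not differ at the adjusted threshold. LI was above BM (0.84 ± 0.22 SE, adjusted p = 0.0082) and BM above SI (1.89 ± 0.23 SE, adjusted p = 3.8e-05). The region was called both higher in lung and lower in SI. The lower level in SI was kept under each refit run, and the higher level in lung was lost without lung replicate 1 (smallest log2 fold change 0.47) and without pancreas replicate 1 (0.56).

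The next region, at +43.2 kb inside *Exoc2* (chr13:30792177-30792776), had 30.1 and 27.7 CPM in lung, 25.1 and 40.4 in LI, 17.4 and 22.8 in pancreas, 10.1 and 10.8 in SI, and 7.88 and 6.76 in BM. Its SI level lay below those of LI, lung, and pancreas, with pancreas 0.94 ± 0.25 SE above SI on the log2 scale (adjusted p = 0.014), and SI and BM did not differ at the adjusted threshold (0.51 ± 0.25 SE, adjusted p = 0.15). Upstream, by contrast, SI was highest. At -18.9 kb, SI had 11.7 and 6.79 CPM, LI 4.10 and 2.52, lung 1.37 and 1.46, pancreas 0.589 and 3.34, and BM 0.979 and 0.736. This region was called higher in SI, with the smallest difference to LI (log2 fold change 1.50 ± 0.52 SE, unadjusted p = 0.011 in edgeR's test, adjusted p = 0.087), and the call was lost without SI replicate 1 (1.02) or LI replicate 2.

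The sequences of the *Irf4* regions that carry these differences are given from GRCm38.p6, plus strand, as the 250 bases at the centre of each region. Capitals mark matches, on either strand, to the letters searched, GAAANNGAA (core of interferon-stimulated response elements, ISRE), TTCNNNGAA (GAS, the STAT site), GGGANTTCC (NF-kappaB), TGANTCA (AP-1), AGATAA (the site of GATA factors), GGAANNGAA (ETS-IRF composite), and TGTGGT (RUNX). The window at +37.0 kb holds 1 GATA match. The window at -24.1 kb holds an ISRE match and a GAS match that runs into an AP-1 match, and the one at +47.1 kb holds a GATA, an AP-1, and an ISRE match.
Irf4 +37.0 kb, chr13:30786118-30786367: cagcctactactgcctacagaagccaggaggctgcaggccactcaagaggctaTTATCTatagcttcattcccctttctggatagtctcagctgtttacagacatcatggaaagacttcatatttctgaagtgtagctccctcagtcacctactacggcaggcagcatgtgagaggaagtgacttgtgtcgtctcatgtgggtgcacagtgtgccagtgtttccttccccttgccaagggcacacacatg
Irf4 -24.1 kb, chr13:30724963-30725212: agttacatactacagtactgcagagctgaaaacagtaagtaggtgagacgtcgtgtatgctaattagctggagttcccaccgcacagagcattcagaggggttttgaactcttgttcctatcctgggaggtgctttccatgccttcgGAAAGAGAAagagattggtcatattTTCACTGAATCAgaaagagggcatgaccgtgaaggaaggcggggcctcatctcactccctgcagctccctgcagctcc
Irf4 +47.1 kb, chr13:30796195-30796444: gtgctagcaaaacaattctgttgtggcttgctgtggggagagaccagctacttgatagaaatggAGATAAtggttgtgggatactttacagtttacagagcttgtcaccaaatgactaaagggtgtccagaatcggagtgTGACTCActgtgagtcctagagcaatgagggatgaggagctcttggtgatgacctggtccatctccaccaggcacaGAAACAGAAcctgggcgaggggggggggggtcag
The region at +47.1 kb is shown for its 3 kinds of match. It was also called lower in BM (1.03 and 1.89 CPM, against 2.83 to 9.72 in the other libraries), and this was lost without pancreas replicate 2. Over the 61 regions, the ISRE letters occurred in 5 of these windows (8.2%), against 7.4% of all regions, and GAS letters in 5 (8.2%), against 6.49%. AP-1 letters occurred in 14 (23.0%, against 16.8%), GATA in 10 (16.4%, against 15.0%), RUNX in 16 (26.2%, against 26.1%), the ETS-IRF composite in 5 (8.2%, against 6.52%), and NF-kappaB in 3 (4.92%, against 2.17%). A match describes letters and does not show that a factor bound there.

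*Irf8* (chr8:120736358-120756694, plus strand) had regions upstream and inside the gene that passed the test between tissues, and its promoter region did not pass. The promoter region (chr8:120735929-120736659) had 17.4 and 17.6 CPM in BM, 15.8 and 20.7 in lung, 26.2 and 18.8 in LI, 14.1 and 11.3 in pancreas, and 28.5 and 14.7 in SI. Both pancreas libraries lay below all others, the SI libraries spanned those of BM, LI, and lung, and the test between the tissues gave an adjusted p of 0.16. At -6.9 kb (chr8:120729163-120729685), in contrast, pancreas had 20.1 and 23.8 CPM, LI 14.8 and 12.0, lung 5.92 and 8.28, SI 3.71 and 6.06, and BM 3.03 and 5.57. Both pancreas libraries lay above all others, 5.09-fold over BM (log2 fold change 2.35 ± 0.33 SE, adjusted p = 0.00012). At -8.0 kb (chr8:120727967-120728754), pancreas had 24.0 and 19.6 CPM, lung 11.9 and 15.8, LI 11.9 and 12.9, BM 8.42 and 8.88, and SI 3.56 and 8.12. These were the 2 regions called higher in pancreas. The nearest tissue was LI at -6.9 kb (log2 fold change 0.72 ± 0.31 SE, adjusted p = 0.27) and lung at -8.0 kb (0.66 ± 0.30 SE, adjusted p = 0.23). The call at -6.9 kb was lost without LI replicate 2 or either pancreas library. That at -8.0 kb was lost with library size as the only scaling, after correction for GC content and width, and without 7 of the 10 libraries in turn.

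Pancreas and LI stood together at further upstream regions. At -19.9 kb (chr8:120716147-120716753), pancreas had 37.3 and 38.2 CPM and LI 30.0 and 30.8, whereas lung had 14.7 and 17.5, BM 12.1 and 14.0, and SI 9.68 and 17.7. Pancreas and LI did not differ at the adjusted threshold (log2 difference 0.31 ± 0.25 SE, adjusted p = 0.65), and LI was above lung (0.91 ± 0.25 SE, adjusted p = 0.026). The adjacent region at -20.9 kb had between 8.91 and 12.9 CPM in the 10 libraries and did not pass the test (adjusted p = 0.25). At -10.9 kb, pancreas had 21.3 and 26.3 CPM, LI 21.2 and 17.9, lung 9.02 and 8.23, BM 6.61 and 8.05, and SI 22.3 and 9.68, so that the position of SI differed between its libraries. At -27.0 kb, BM was lowest, with 1.96 and 2.02 CPM, against 7.61 and 11.8 in lung, 8.02 and 10.2 in LI, 7.18 and 10.0 in pancreas, and 5.68 and 5.02 in SI. It was the *Irf8* region called lower in BM (smallest log2 fold change -1.42 ± 0.32 SE, to SI, adjusted p = 0.0037), and the call was kept under each refit run. The region at +13.6 kb in intron 6 ran the other way, with 10.5 and 9.11 CPM in BM and between 4.81 and 8.09 elsewhere (adjusted p over the 5 tissues = 0.037), and it passed the test in 9 of the 17 settings run.

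**Figure D3:**
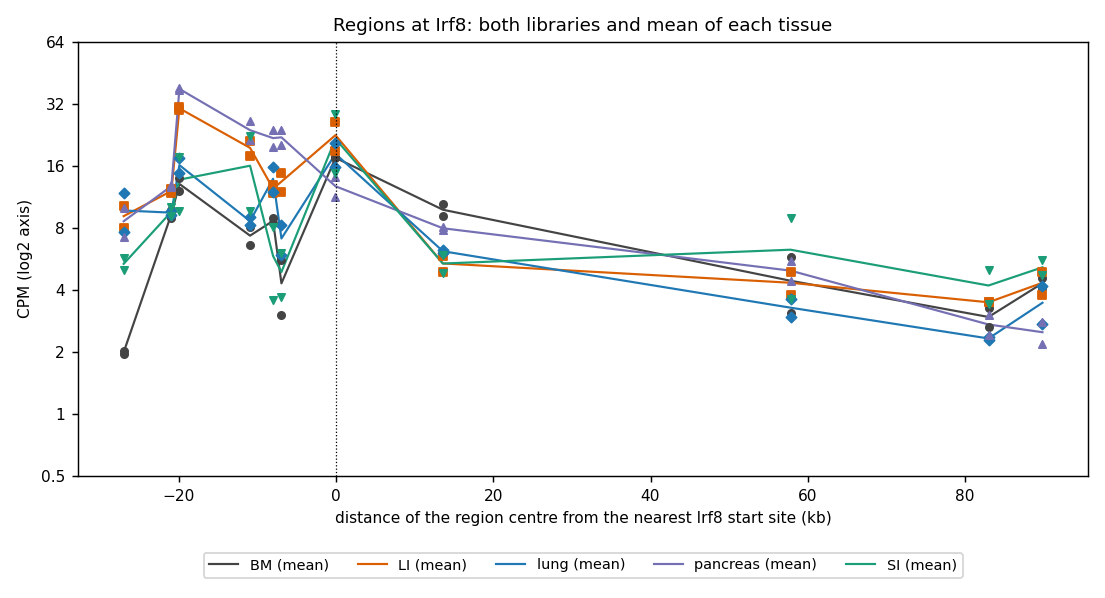
CPM (log2 axis) of the 11 *Irf8* regions against the distance of their centres from the nearest *Irf8* TSS (kb, dotted line at 0). Points are the 2 libraries of a tissue and lines join the tissue means. The pancreas mean is highest from -20.9 to -6.9 kb, and BM is lowest at -27.0 kb. At the promoter, both pancreas points lie below all others and the SI points span those of BM, LI, and lung.

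The central 250 bases of the 2 upstream *Irf8* regions called higher in pancreas (GRCm38.p6, plus strand, capitals as above) both hold an AP-1 match, with a GATA match at -6.9 kb and a RUNX match at -8.0 kb.
Irf8 -6.9 kb, chr8:120729300-120729549: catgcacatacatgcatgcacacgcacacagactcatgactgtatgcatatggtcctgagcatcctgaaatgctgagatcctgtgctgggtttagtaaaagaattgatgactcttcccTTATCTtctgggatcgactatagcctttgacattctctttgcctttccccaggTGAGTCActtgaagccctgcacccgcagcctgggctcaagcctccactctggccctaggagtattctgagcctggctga
Irf8 -8.0 kb, chr8:120728236-120728485: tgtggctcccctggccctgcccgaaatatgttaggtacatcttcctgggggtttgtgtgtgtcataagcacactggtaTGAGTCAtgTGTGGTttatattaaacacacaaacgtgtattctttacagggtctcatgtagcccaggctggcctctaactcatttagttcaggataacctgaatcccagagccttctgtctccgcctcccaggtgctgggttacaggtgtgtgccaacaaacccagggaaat

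*Irf1* (chr11:53770014-53778374, plus strand) had the highest level per length among the members after *Irf2*, with 94.0 CPM per kb at its promoter over the 10 libraries, against 99.4 for the *Irf2* promoter and 19.7 for the *Irf4* TSS. The *Irf1* promoter region (chr11:53769829-53770435) had 89.0 and 69.3 CPM in BM, 52.8 and 54.2 in lung, 46.1 and 46.0 in LI, 57.2 and 35.7 in pancreas, and 50.8 and 68.6 in SI. BM was highest, opposite to *Irf4*, and was 1.72-fold above LI (log2 fold change 0.78 ± 0.23 SE, adjusted p = 0.016). The difference to SI did not pass (0.41 ± 0.22 SE, adjusted p = 0.20), so the region was not called higher in BM, and it passed the test between tissues in 10 of the 17 settings run. The 250 bases before the TSS, from RefSeq (GRCm38.p6), hold 1 match to the GAS letters, shown in capitals, which 7.02% of all 32851 promoter windows of this length also hold.
Irf1 promoter, chr11:53769764-53770013: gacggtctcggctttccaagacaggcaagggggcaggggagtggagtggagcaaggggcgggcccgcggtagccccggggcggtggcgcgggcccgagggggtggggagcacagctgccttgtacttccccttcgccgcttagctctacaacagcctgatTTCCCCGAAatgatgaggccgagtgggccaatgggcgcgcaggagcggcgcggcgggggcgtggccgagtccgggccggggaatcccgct

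Among the *Irf1* regions, the one at +4.5 kb was higher in both intestines and the one at +39.9 kb in SI alone. In intron 7, at +4.5 kb (chr11:53774685-53775263), LI had 18.2 and 17.5 CPM and SI 16.7 and 20.6, against 8.03 and 8.65 in BM, 8.78 and 10.5 in lung, and 8.07 and 9.81 in pancreas. The 4 intestinal libraries lay above the other 6, each of the 6 contrasts passed (smallest log2 fold change 0.88 ± 0.23 SE, LI against lung, largest adjusted p = 0.031), and the call was kept under each refit run. At +39.9 kb, inside the non-coding gene *Gm12216*, SI had 6.26 and 8.19 CPM, LI 2.27 and 3.17, lung 2.20 and 1.88, pancreas 3.36 and 1.73, and BM 1.52 and 2.07. SI was 2.62-fold above LI, its nearest tissue (log2 fold change 1.39 ± 0.39 SE, adjusted p = 0.037), and this call too was kept under each refit run. The strong region at +24.7 kb did not pass the test, with 35.9 to 62.3 CPM over the 10 libraries (adjusted p = 0.12).

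*Irf2* (chr8:46739745-46847458, plus strand) had an even promoter. Its promoter region (chr8:46739400-46740081), which also covers the start of *Gm16675*, had 80.1 and 83.2 CPM in BM, 67.7 and 66.5 in lung, 57.9 and 61.3 in LI, 64.7 and 71.0 in pancreas, and 54.8 and 70.0 in SI (adjusted p = 0.23). BM was 1.37-fold above LI (log2 fold change 0.45 ± 0.18 SE, adjusted p = 0.065). Of the 4 *Irf2* regions that differed between tissues, 3 lay in introns. The other lay downstream of the gene, at +112.9 kb, with 10.3 and 2.33 CPM in SI, 4.36 and 3.56 in LI, 1.88 and 3.34 in pancreas, 2.45 and 1.93 in BM, and 1.10 and 1.57 in lung (adjusted p = 0.022). Its SI libraries lay far apart, on either side of LI. At +59.8 kb in intron 2 (chr8:46799142-46799890), SI had 13.0 and 10.1 CPM, LI 7.76 and 5.47, pancreas 3.12 and 4.96, lung 2.98 and 3.70, and BM 2.10 and 2.53. The SI and LI libraries lay above the others, SI was 4.95-fold above BM (log2 fold change 2.31 ± 0.33 SE, adjusted p = 0.00013), and the region was called higher in SI and in both intestines. The nearest contrasts did not pass the adjustment (SI against LI 0.81 ± 0.31 SE, adjusted p = 0.12, and LI against pancreas 0.73 ± 0.33 SE, adjusted p = 0.31). The call in SI was lost without SI replicate 1 or LI replicate 2, and that in both intestines was lost in DESeq2, with GC and width trends removed, and without 5 libraries in turn.

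In intron 1, at +13.4 kb, LI had 8.80 and 6.60 CPM and SI 9.00 and 7.91, against 2.99 and 2.44 in BM, 4.47 and 3.81 in lung, and 3.95 and 5.61 in pancreas. Its call in both intestines rested on LI against pancreas (log2 fold change 0.70 ± 0.31 SE, adjusted p = 0.29) and was lost in DESeq2, with GC and width trends removed, and without 4 libraries in turn. At +8.1 kb, BM had 0.881 and 1.01 CPM and the other libraries 1.77 to 3.85, a call of lower in BM that was lost without BM replicate 1 or lung replicate 1. The 250 central bases at +59.8 kb, printed as the *Irf2* window with the widest range, hold 2 GATA matches.
Irf2 +59.8 kb, chr8:46799392-46799641: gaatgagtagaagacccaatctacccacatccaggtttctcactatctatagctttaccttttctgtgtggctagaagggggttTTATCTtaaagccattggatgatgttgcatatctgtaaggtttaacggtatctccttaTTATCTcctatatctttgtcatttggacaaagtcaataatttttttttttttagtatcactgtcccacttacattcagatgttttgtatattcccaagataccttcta

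**Figure D4:**
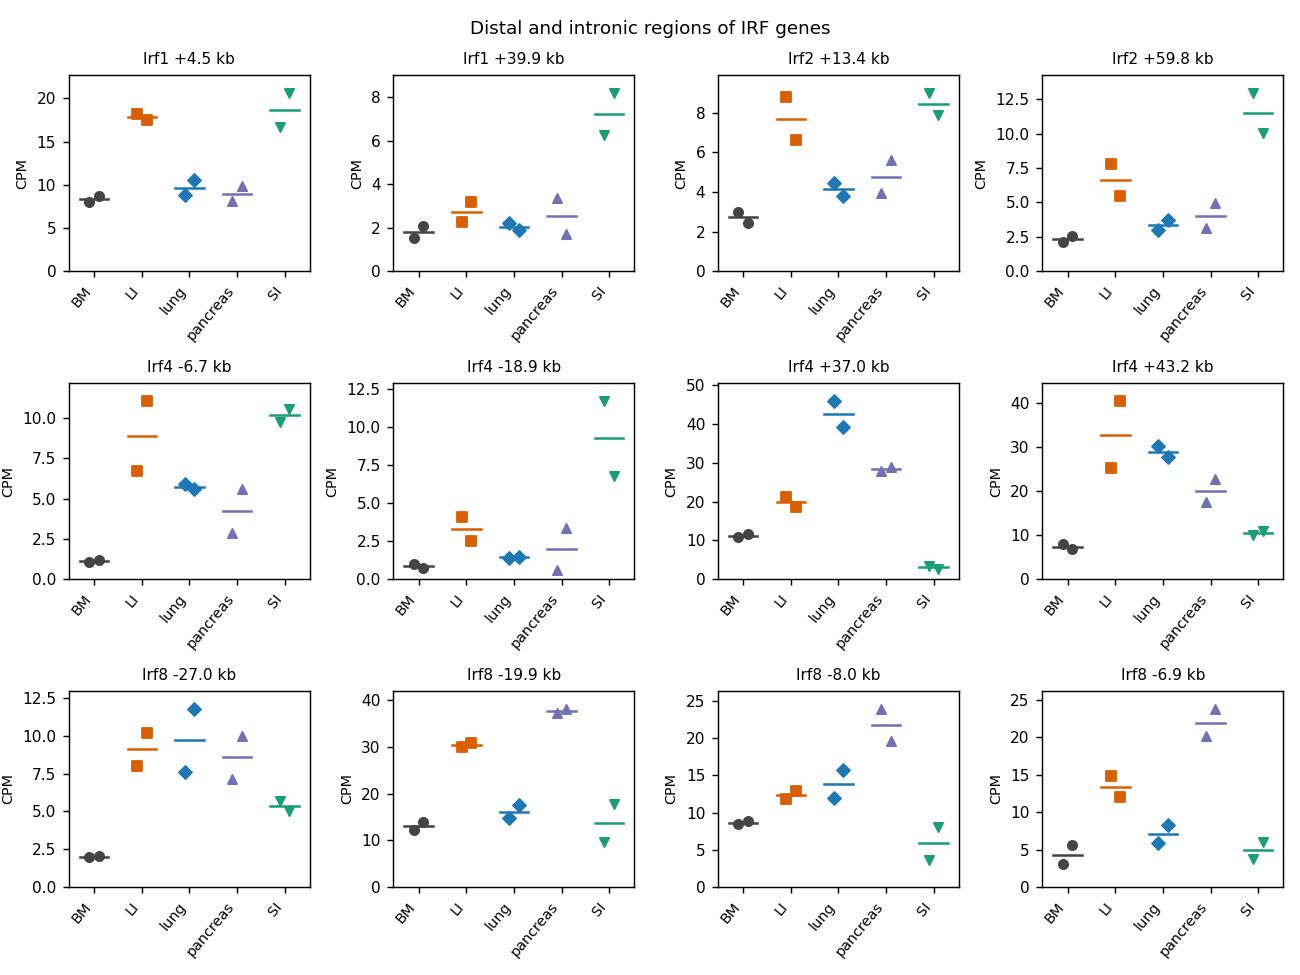
CPM of 12 intronic and distal IRF regions, with 1 panel per region, 5 tissues on the horizontal axis, 2 points per tissue for its libraries, and a bar at their mean. The vertical axes start at 0 and differ between panels. The panels show LI and SI above the rest at *Irf1* +4.5 kb, SI near 0 at *Irf4* +37.0 kb, and pancreas above the rest at *Irf8* -6.9 and -8.0 kb.

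*Irf3*, *Irf9*, and *Irf7*, the factors of the type I interferon system, had 1 region each. *Irf3* (chr7:44997648-45002848, plus strand) had 1 region (chr7:44997353-44997918), a promoter it shares with *Bcl2l12*, with 63.2 and 40.2 CPM in BM, 34.2 and 42.1 in lung, 31.1 and 29.9 in LI, 34.6 and 30.6 in pancreas, and 37.1 and 47.1 in SI (adjusted p = 0.055). It passed the test in 6 of the 17 settings run. *Irf9* (chr14:55603985-55610030, plus strand) had 1 region at its promoter (chr14:55603859-55604471), with 33.2 and 25.9 CPM in pancreas and between 42.4 and 52.5 in the other 8 libraries. The region passed the test between tissues (adjusted p = 0.034), as it did in 9 of the 17 settings run. Pancreas did not overlap the other tissues and was called lower than each other tissue, by 1.52 to 1.64-fold (smallest log2 fold change -0.60 ± 0.19 SE, to LI, adjusted p = 0.11). The call was lost without pancreas replicate 2, where the smallest log2 fold change was -0.44.

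*Irf7* (chr7:141263183-141266499, minus strand) had 1 wide region (chr7:141264896-141266549) that spans its TSS, although the centre lies in the gene at +0.7 kb. SI had 103 and 61.2 CPM, LI 54.3 and 44.0, lung 42.4 and 46.6, pancreas 45.2 and 39.2, and BM 43.4 and 40.4. Both SI libraries lay above the other 8, but replicate 1 far above replicate 2. The region was called higher in SI, 1.67-fold above LI (log2 fold change 0.74 ± 0.22 SE, unadjusted p = 0.0043 in edgeR's test, adjusted p = 0.051). Without SI replicate 1 the smallest log2 fold change was 0.28, the call was lost, and the test between tissues gave an adjusted p of 0.20. Without LI replicate 2 the call was lost as well.

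*Irf5* (chr6:29526130-29541869, plus strand) was highest in SI in each of its 4 regions and lowest in BM in each, and SI replicate 1 was the higher SI library in each. Its promoter region, before an internal TSS (chr6:29528674-29529389), had 24.4 and 12.2 CPM in SI, 13.5 and 10.5 in LI, 9.95 and 10.9 in pancreas, 7.29 and 8.17 in lung, and 6.17 and 7.04 in BM (adjusted p = 0.0047). The region at -1.2 kb from this TSS had 12.4 and 5.47 CPM in SI, 5.67 and 5.65 in LI, 5.36 and 7.33 in pancreas, 4.08 and 6.07 in lung, and 2.99 and 2.76 in BM, where it was called lower. Its smallest difference, to lung, was a log2 fold change of -0.83 ± 0.37 SE (adjusted p = 0.14), and the call was lost without either BM library, LI replicate 2, lung replicate 2, or pancreas replicate 2. The 2 other regions did not pass the test (adjusted p = 0.056 and 0.08). At *Irf7* and *Irf5*, as at the *Irf4* TSS, the higher of the 2 SI libraries was the one with the higher CPM at *Ebf1*, *Mzb1*, *Cd79b*, and *Spi1*. The Lin gate holds B220, a B cell marker, and CD11b and CD11c, myeloid markers, and whether cells of another type contributed to these values was not tested.

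**Figure D5:**
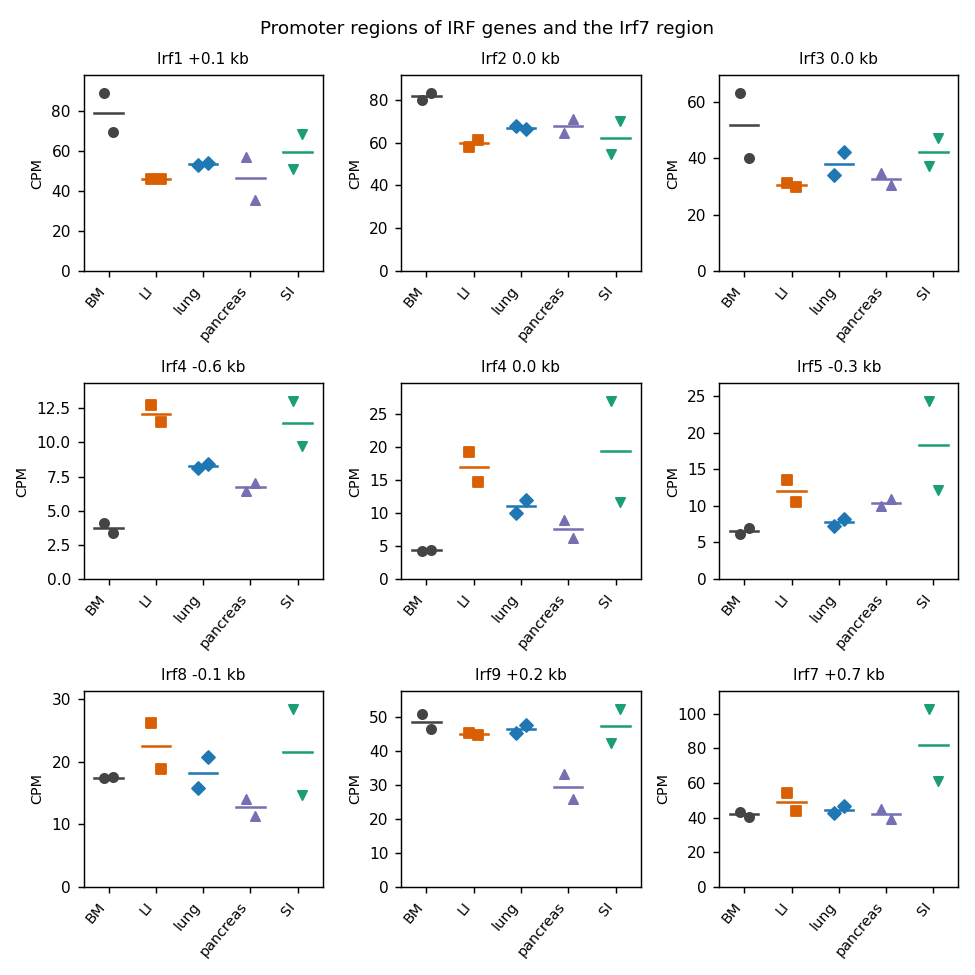
CPM of the 8 promoter regions of IRF genes and of the *Irf7* region, with 1 panel per region, 5 tissues on the horizontal axis, 2 points per tissue for its libraries, and a bar at their mean. The vertical axes start at 0 and differ between panels. In TMM-scaled CPM, the BM mean is highest at *Irf1*, *Irf2*, *Irf3*, and, by little, *Irf9* (48.7, against 47.5 in SI). It is lowest at both *Irf4* regions and at the *Irf5* region, which lies before an internal TSS. The 2 SI points lie far apart at the *Irf4* TSS, *Irf5*, *Irf7*, and *Irf8*.

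Summed over all regions of a gene, *Irf4* had 66.6 and 67.3 CPM in BM, 186 and 181 in lung, 191 and 208 in LI, 125 and 145 in pancreas, and 203 and 147 in SI, a range of tissue means of 1.57 on the log2 scale. The range was 0.91 for *Irf8*, highest in pancreas and lowest in BM, and 0.22 for *Irf2*. Over the 10 libraries, the genes with the most similar summed log2 CPM among 14788 others were *Trib1* (Pearson's r = 0.98) and *Gm29642* (0.969) for *Irf4*, *Htr1b* (0.971) and *Ctsz* (0.968) for *Irf8*, *Abi1* (0.935) and *H2-Q7* (0.924) for *Irf1*, and *Ap3b1* (0.947) and *Tma7-ps* (0.938) for *Irf2*. They were *Mospd3* (0.986) and *Nbr1* (0.985) for *Irf3*, *5730409E04Rik* (0.944) and *St14* (0.936) for *Irf5*, *Ndufa4l2* (0.968) and *Lefty2* (0.96) for *Irf7*, and *Tnpo1* (0.957) and *Atrnl1* (0.943) for *Irf9*. These are the top values out of many genes in libraries that share their depth and scaling, and they describe likeness only.

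Among genes of the same pathways, accessibility varied to different degrees. Regions nearest to the receptors, kinases, and STATs of interferon signalling (11 genes, 77 regions) differed between tissues in 34 cases (44.2%, the same share as of all regions), with 7 lower in BM (background 6.63%), 3 higher in BM (4.50%), and 6 lower in SI (3.59%). All 6 of the latter belonged to *Jak1*, the kinase shared by the interferon receptors. Regions of nucleic acid sensors, Toll-like receptors, and their adaptors (16 of 17 genes with a region, 51 regions) differed in 12 cases (23.5%, against 44.2%), with 2 lower in BM (background 6.63%) and 3 higher (4.50%). Regions of IRF partners and cofactors (11 of 12 genes, 117 regions) differed in 64 cases (54.7%, against 44.2%), with 15 lower in BM (background 6.63%) and 8 higher (4.50%). Of the 15, 5 belonged to *Ets1* (29 regions), 4 to *Ikzf1* (16 regions), which encodes Ikaros, and 3 to *Batf* (11 regions), the AP-1 factor that pairs with IRF4. The rest were 2 at *Irf2bp2* and 1 at *Jun*. Of the 8 higher in BM, 3 belonged to *Irf2bp2*, 2 to *Irf2bpl*, 2 to *Junb*, and 1 to *Jun*. The median range of the tissue means was 0.86, 0.65, and 0.92 on the log2 CPM scale for these 3 groups, against 0.92 for all regions and 2.08 for *Irf4*.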

How the data were processed

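ILC2s of 5 mouse tissues were profiled by ATAC-seq in 10 libraries, and samples were grouped by tissue from their labels. Per the labels and the study's methods, the authors checked reads with FastQC 0.11.9, mapped them to mm10 with Bowtie2 2.2.9, kept unique reads (SAMtools 1.8), called peaks per library with MACS2 2.1.1, kept peaks of both replicates, merged them over tissues, and deposited raw counts of reads per merged peak. No removal of duplicates or shift for Tn5 is named there, so counts may include duplicate reads. Coordinates are printed as in the table.

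Regions with at least 1 count (49981) were fitted in edgeR 4.0.16 (TMM, quasi-likelihood, tissue as the factor, 10 libraries together) and p-values were adjusted over all regions. The standard error of a log2 fold change is its size divided by the square root of its F. The fit was tested on simulated data. In them a small set of regions changed, in SI alone, whereas 44.2% of regions differed in the real data. Curated RefSeq transcripts of GRCm38.p6 gave the TSSs. No IRF region lay beyond the limit that the rule sets beside *Irf1*. Alternatives were DESeq2 size factors or library size in place of TMM, at least 10 counts in 2 libraries, DESeq2 1.42.0, the replicate number as a block, trends in GC content and width removed, adjusted p-values in each contrast, regions within 50 kb of the TSS, and each library left out. Predicted transcripts in the TSS search were added after the data were seen.

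The members and the lists of related and marker genes were chosen with earlier results of these data known. Named by rule were promoter regions, the called region with the widest range at each gene, and regions called in 1 tissue or in both intestines (for more than 5, those with the largest minimum difference). Other regions named were chosen after their values were seen. Some related genes of the lists are not reported here by name.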

Additional observations from a re-analysis of the deposited data

How the results depend on the processing

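The number of IRF regions that differed between tissues was 38 of 61. It was 39 with DESeq2 size factors, 42 with library size alone, 38 with at least 10 counts in 2 libraries, and 41 in DESeq2. With GC content and width trends removed it was 38. It was 34 of the 50 regions inside a member gene or within 50 kb of its TSS, and 34 of 51 with predicted transcripts. It lay between 30 and 42 with each library left out. The number lower in BM (14) lay between 11 and 17 over these settings and those below, and between 11 and 16 with a library left out. With library size alone, 1 region was higher in pancreas and 8 were higher in SI, and this scaling moved the median region by -0.15 (pancreas) to 0.20 (SI) on the log2 scale. DESeq2 gave 1 region higher in both intestines. With adjusted p-values in each contrast, 11 were lower in BM, 1 was higher in SI, 1 lower in SI, 1 higher in both intestines, and 0 each higher in lung, higher in pancreas, and lower in pancreas. With GC content and width trends removed, 1 was higher in pancreas and 2 were lower in SI. With a library left out, higher in BM ranged from 0 to 1, higher in LI from 0 to 1, higher in lung from 0 to 1, higher in pancreas from 0 to 2, lower in pancreas from 0 to 1, higher in SI from 1 (without SI replicate 1 or LI replicate 2) to 11 (without SI replicate 2), lower in SI from 1 to 3, and higher in both intestines from 1 to 7. In these fits the lone library of a tissue is assumed to vary like the others. The replicate number does not pair the libraries (correlations of deviations between -0.218 and 0.196), and with it as a block 38 regions differed between tissues and 14 were lower in BM. Over promoter regions alone, the log2 range of tissue means was 1.93 for *Irf4*, 0.78 for *Irf1*, and 0.45 for *Irf2*, and *Irf7* has no region in that window. The lowest counts (10 in a library) limit ratios at the weakest *Irf4* regions. The cause of these changes was not tested.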
